A study of Caenorhabditis japonica with 3 samples.

Results

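The comparison described here sets 5 single embryos of the nematode *Caenorhabditis japonica* aged 60 to 100 minutes after the 4-cell stage against 5 aged 10 to 50 minutes, 10 of the 46 embryos of a developmental time course. The embryos were taken by age: those at 60, 70, 80, 90 and 100 minutes form the later window and those at 10, 20, 30, 40 and 50 minutes the earlier one, with 1 embryo at each age. All 10 come from the first of 3 pooled libraries, called the early library, so no border between libraries is crossed. By the labels, embryos were cut out of adult hermaphrodites or females, washed in bleach, picked at 4 cells and kept at 20 °C until their age was reached. All groups share this handling, and neither strain nor genotype is given in the labels. The other embryos of the early library, those at 110, 120 and 130 minutes and those of 1, 2 and 4 cells (3 and 3), are used below as embryos that enter neither window.

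Early nematode embryos start with messenger RNA that the mother placed in the egg. In *C. elegans*, the best studied relative, much of this maternal RNA is degraded while the first cells divide, and transcription from the embryo's own genome starts during these same divisions. The levels of transcripts in young embryos are thus known to depend on both loss of maternal RNA and new transcription, which a measurement of RNA level does not separate.

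Each embryo was measured by CEL-Seq, which gives the polyA RNA of each embryo a barcode, pools the embryos, amplifies the pool and sequences 3′ ends. The values are the authors' deposited read counts per gene, in 3955 genes known by identifier only. The files pair no identifier with a gene name, and the 5 gene lists prepared for this comparison matched 0 genes, so no gene is described by function. Levels are given in CPM, reads of a gene per 1000000 reads of the embryo in the listed genes, which are relative to the other genes. The amount of RNA per embryo is not known from them, and in whole embryos fewer cells that hold a transcript and less of it per cell cannot be told apart.

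The later embryos had 36767, 257770, 26508, 45463 and 114677 reads in order of age, against 14260, 59988, 381377, 12038 and 404701 reads in the earlier ones. Read totals overlapped widely between the windows. Mean depth was 96237 ± 96708 reads in the later window and 174473 ± 200608 reads in the earlier one (SD, n = 5 each; two-sided exact permutation p = 0.40). The embryos at 10 and 40 minutes lay below 0.25 of the median of the 46 embryos and are called shallow. Barcode numbers ran from 9 to 13 in the later window and from 4 to 8 in the earlier one, so age and barcode cannot be told apart. Each embryo is a separate animal, and the spread within a window includes its range of ages.

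Fewer genes were detected in the later embryos at equal depth, and the most abundant genes held a larger share of their reads. At 12038 reads, the depth of the shallowest embryo, the expected numbers of genes with a read were 2161, 2235, 2322, 2161 and 2275 in the later embryos, in order of age. The earlier embryos had 2310.3, 2537, 2539, 2621 and 2429.8. The windows overlapped through the embryos at 80 and 10 minutes alone. The mean was 2231 ± 70.5 genes in the later window and 2487 ± 120 genes in the earlier one (SD, n = 5 each), a difference of -256 genes (two-sided exact permutation p = 0.016, adjusted p = 0.048 over 3 tests; the smallest p possible is 0.0079). The 10 most abundant genes of an embryo took 8.29%, 9.09%, 8.87%, 10.5% and 7.87% of the reads in the later embryos. In the earlier embryos they took 9.03%, 7.08%, 6.35%, 6.49% and 7.02%. That is 8.94% ± 1.02 in the later window and 7.19% ± 1.07 in the earlier one (SD, n = 5 each; two-sided exact permutation p = 0.032, adjusted p = 0.048), with the embryo at 10 minutes inside the later range. This second difference was 2.20 points without the embryo at 10 minutes (exact permutation p = 0.016). It did not pass an unadjusted p under 0.05 without the embryo at 20, 30, 40 or 50 minutes (exact permutation p = 0.071 each). Nor did it without that at 70 minutes (0.056) or 90 minutes (0.063). By the same test p was 0.048 without that at 60 or 80 minutes and 0.032 without that at 100 minutes. For detected genes the exact permutation p was 0.0079 to 0.024 when 1 embryo was left out. None of these leave-one-out p-values is adjusted.

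**Figure D1:**
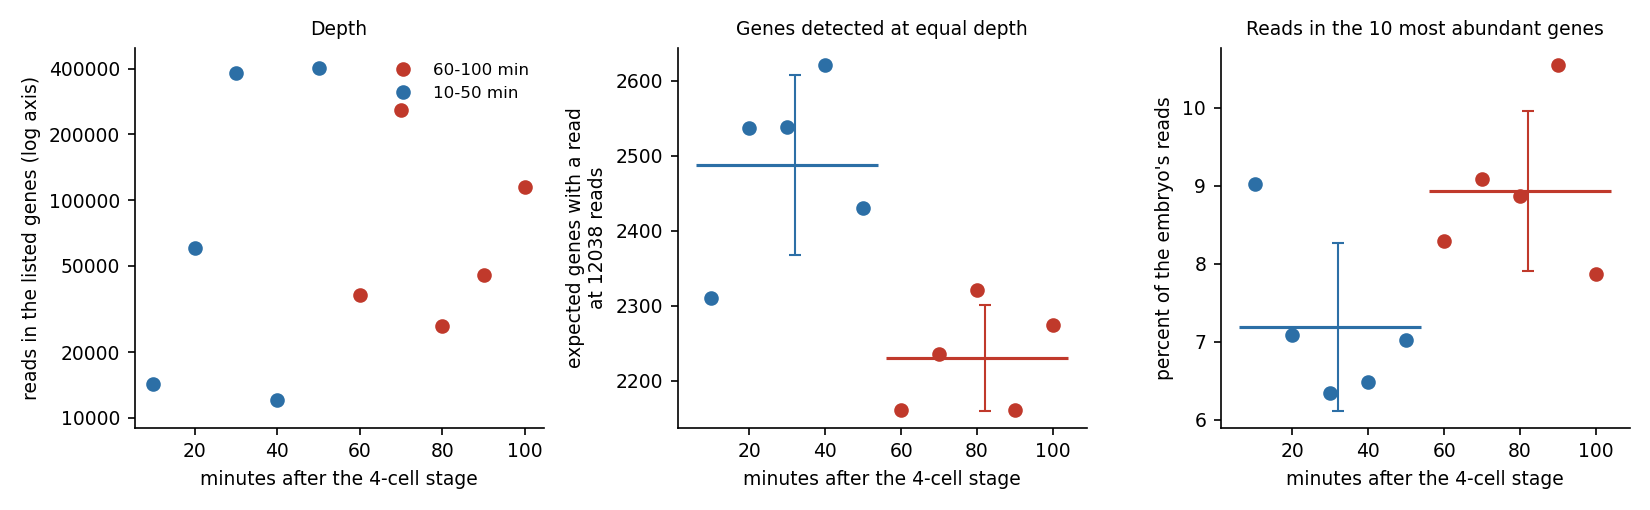
Reads per embryo (left, log axis), expected genes with a read at 12038 reads (middle) and percent of reads in the 10 most abundant genes (right), against minutes after the 4-cell stage. Points are embryos, and in the middle and right panels horizontal lines are window means and bars 1 SD (n = 5 each); the embryo at 10 minutes lies inside the later range in the middle and right panels.

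Pairs of embryos within a window were more alike than pairs across the windows, as a description with no test. After each embryo was thinned to 12038 reads, Pearson's r across 1176 genes, on the log2(CPM + 10) scale, had a median of 0.54 over the 10 pairs of the later window and 0.48 over the 10 pairs of the earlier one. The median was 0.33 over the 25 pairs across windows. All these embryos share 1 library, and r at this depth is held down by counting error. The embryo at 50 minutes was the exception to the grouping by window: its closest match was the embryo at 70 minutes (r = 0.52), and its mean r was 0.45 with the later window and 0.46 with the rest of its own. The embryo at 10 minutes had the lowest mean r with its own window, 0.39. Among the embryos of 1, 2 and 4 cells it was closest to that of 2 cells (r = 0.49), as was the embryo at 50 minutes by a small margin (r = 0.45, and 0.44 with that of 1 cell), while those at 20, 30 and 40 minutes were closest to that of 1 cell (r = 0.55, 0.55 and 0.55). With the embryo at 120 minutes, r was 0.52, 0.53, 0.59, 0.59 and 0.69 in the later embryos in order of age, against 0.25, 0.30, 0.36, 0.32 and 0.40 in the earlier ones.

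Between the windows 177 of 1176 tested genes changed, 15.1% of them, with 70 higher (5.95%) and 107 lower (9.1%) in the later window. The test was edgeR's quasi-likelihood F test with Benjamini-Hochberg adjusted p under 0.05. The 70 higher genes had a median log2 fold change of 1.64 (quartiles 1.36 and 2.36), and 26 of them were at least 4-fold higher. The 107 lower genes had a median of -1.86 (quartiles -2.40 and -1.46), and 49 were at least 4-fold lower. Over all tested genes the median was 0.16. Each of the 177 genes had reads in both windows, as did all 1176 tested genes. The filter on low counts asks for a minimum level in only as many embryos as 1 window holds. A gene high in 1 window can thus be tested through that window alone, and such genes were not counted. The higher genes had a median level of 1115 CPM in the later window and 329.9 CPM in the earlier one, and the lower genes 135 CPM in the later window and 582 CPM in the earlier one.

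For 36 of the 70 higher genes, all 5 later embryos lay above all 5 earlier ones in CPM, which held for 3.57% of all tested genes. For 78 of the 107 lower genes all 5 later embryos lay below all 5 earlier ones, which held for 7.82% of tested genes. These CPM carry no TMM factor, while the calls do. With TMM scaling the counts were 45 of the 70 higher genes and 73 of the 107 lower genes. Among all 1176 tested genes they were 58 above and 81 below. These counts describe the called genes and are not a second test. The balance of higher and lower calls depended on the scaling: with library size alone, 45 genes were higher and 138 lower, and the median log2 change of all genes was -0.08 in place of 0.16. Lower calls were the majority in each of the 4 scalings tried. The number of calls was 104 of 1106 tested genes without the embryo at 20 minutes and 107 of 1103 without that at 30 minutes. Without the 2 shallow embryos it was 222 (66 higher, 156 lower) of 1978 tested genes, where the fit on all 10 embryos tested 1176. Of the 177 genes, 99, 103 and 117 were called again in the same direction in these fits.

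**Figure D2:**
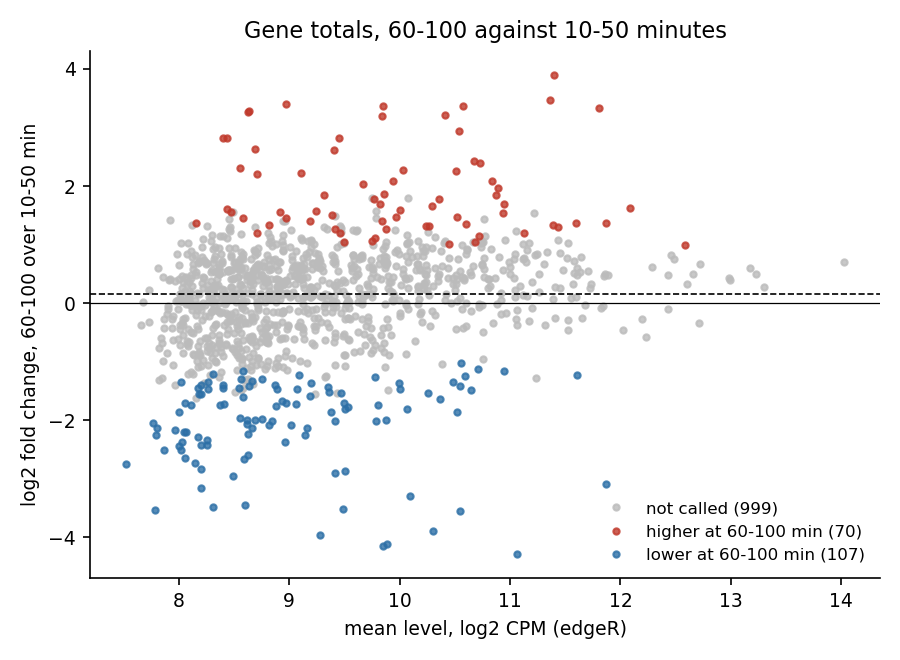
Log2 fold change of each of the 1176 tested genes, 60 to 100 over 10 to 50 minutes, against its mean level in log2 CPM from the same fit. Red points are the 70 genes higher and blue points the 107 genes lower at an adjusted p under 0.05, grey points the other 999; the dashed line is the median of all genes, 0.16.

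CJA11892 had the largest rise among called genes with at least 100 reads and a mean of 100 CPM. It had 2094, 1738, 4263, 6973 and 3915 CPM in the later embryos in order of age, against 210.4, 50.01, 207, 166 and 628 CPM in the earlier ones. The windows did not overlap, and the highest earlier value was that at 50 minutes. The means were 3797 ± 2089 CPM in the later window and 252 ± 220 CPM in the earlier one (SD, n = 5 each). The log2 fold change was 3.90 ± 0.55 (SE; edgeR adjusted p = 3.06e-04), resting on 1404 reads in the later window and 341 in the earlier one. Without the embryo at 50 minutes it was 4.70.

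CJA17475 had 3073, 2312, 5017, 5873 and 1936 CPM in the later embryos, against 351, 133, 207, 83.1 and 859.9 CPM in the earlier ones. As for the gene before it, the later embryos all lay above the earlier ones and the embryo at 50 minutes was the nearest to them. The means were 3642 ± 1723 CPM in the later window and 327 ± 315 CPM in the earlier one (SD, n = 5 each). The log2 fold change was 3.47 ± 0.53 (SE; edgeR adjusted p = 3.59e-04), and 4.33 without the embryo at 50 minutes.

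The largest fall was that of CJA14372. Its levels were 354, 109, 151, 66.0 and 166 CPM in the later embryos, against 3296, 5834.5, 1854, 5566 and 712 CPM in the earlier ones. The embryo at 50 minutes again lay closest to the later window, and the later values rest on 13, 28, 4, 3 and 19 reads. The means were 169 ± 110.3 CPM in the later window and 3452 ± 2249 CPM in the earlier one (SD, n = 5 each), with a log2 fold change of -4.29 ± 0.59 (SE; edgeR adjusted p = 3.01e-04).

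CJA06598 had 109, 73.7, 151, 66.0 and 52.3 CPM in the later embryos, against 5399.7, 733, 456, 1079.9 and 306 CPM in the earlier ones. The later values rest on 4, 19, 4, 3 and 6 reads, and the earlier value at 40 minutes on 13 reads. The value at 10 minutes stood far above the others of its window. The log2 fold change was -4.16 ± 0.77 (SE; edgeR adjusted p = 0.0011) with all embryos, -2.71 without that at 10 minutes and -2.39 without both shallow embryos, and the gene was called lower in each of these fits. The two-sided exact permutation p of each of these 4 genes was 0.0079, the smallest that 5 against 5 embryos can give. It is not adjusted over genes. The genes were chosen from these same embryos for large changes, so it is no further support.

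**Figure D3:**
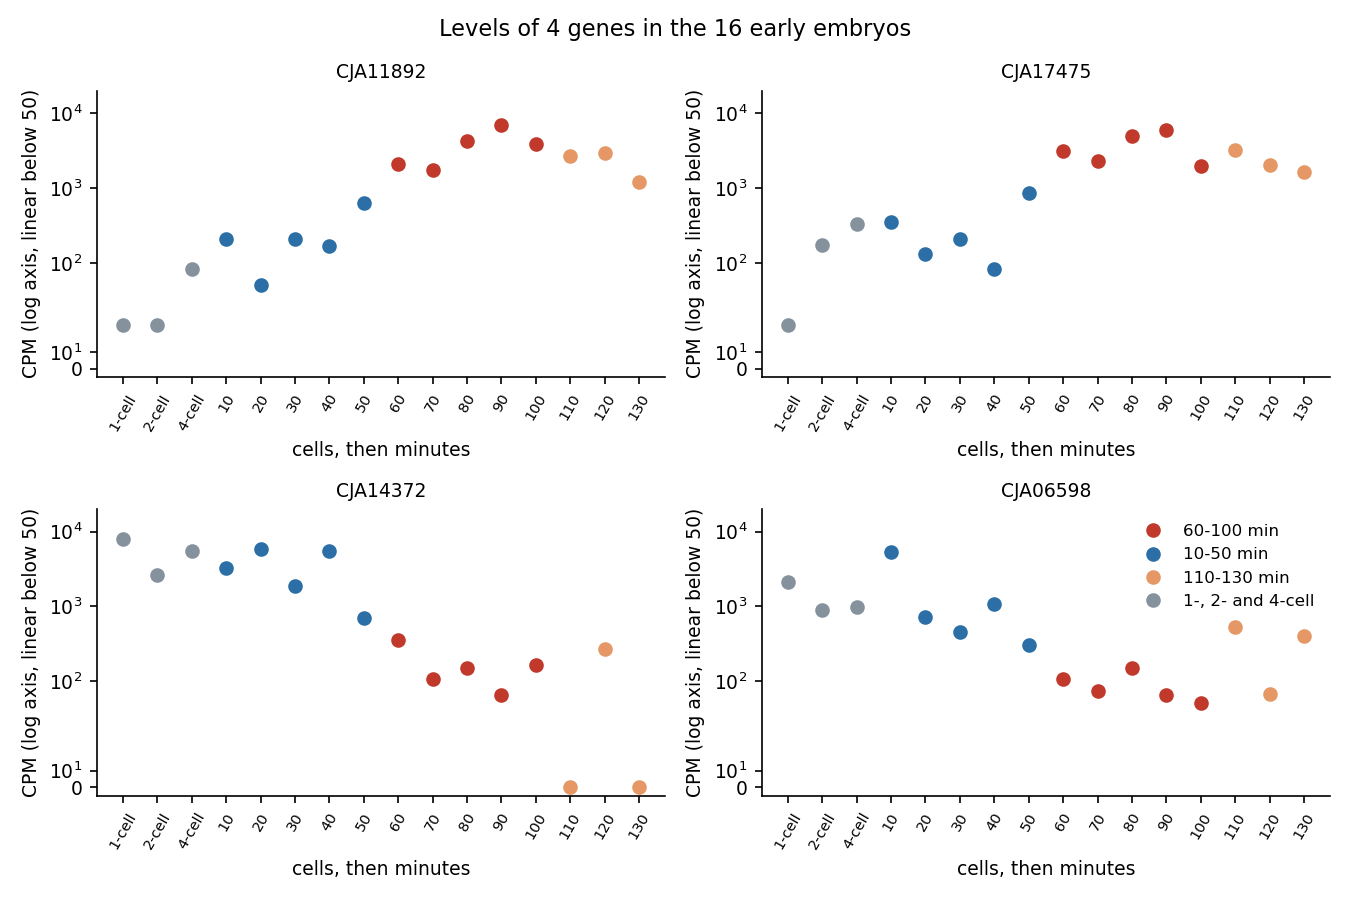
CPM of CJA11892, CJA17475, CJA14372 and CJA06598 in each of the 16 embryos of the early library, in order of age (log axis, linear below 50 CPM). Each point is 1 embryo, coloured by window; the top genes lie higher in all 5 embryos of 60 to 100 minutes than in those of 10 to 50 minutes, and the bottom genes lower.

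The embryos on either side of the windows, which took no part in the choice of these genes, were read for them as well. The 3 embryos of 110, 120 and 130 minutes had 2646, 2923 and 1209 CPM of CJA11892, against 26.5, 26.4 and 83.2 CPM in those of 1, 2 and 4 cells. For CJA17475 they had 3175, 2039.6 and 1612 CPM, against 26.5, 171 and 333 CPM at 1, 2 and 4 cells. For CJA14372 they had 0, 272 and 0 CPM (4 reads in all), against 7999.6, 2596 and 5449.6 CPM at 1, 2 and 4 cells. In each of these 3 genes the embryos before and after the windows lay on the side of the nearer window. For CJA06598 the older embryos had 529, 68.0 and 403 CPM on 5 reads in all, against 2138, 896 and 978 CPM at 1, 2 and 4 cells. In the middle library (140 to 290 minutes, 16 embryos) CJA11892 had a median of 303 CPM, with a range of 0 to 4624, and in the late library (300 to 430 minutes, 14 embryos) a median of 0 and a maximum of 89.0 CPM. CJA14372 had a median of 1.10 CPM in the middle library. A difference between libraries and one between ages cannot be told apart there.

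CJA38444 and CJA12409 are shown as the 2 genes of highest mean level among those not called. CJA38444, the first gene in 9 of the 10 embryos (CJA11870 was first at 10 minutes), had 15068, 14990.1, 17844, 19774 and 10787 CPM in the later embryos, against 10098, 9602, 12360.5, 9470.0 and 10314 CPM in the earlier ones. Only the later embryo at 100 minutes lay within the earlier range. Its log2 fold change was 0.70 ± 0.29 (SE; edgeR adjusted p = 0.11), while the exact permutation test on its log2(CPM + 10) alone gave p = 0.016. CJA12409 had 5766, 7922, 11808, 6137 and 10499 CPM in the later embryos, against 5891, 9252, 8280.5, 7144 and 6780.3 CPM in the earlier ones, with full overlap. Its log2 fold change was 0.27 ± 0.31 (SE; edgeR adjusted p = 0.57).

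Summed over genes, the higher genes took 12.5%, 7.89%, 10.6%, 12.4% and 9.19% of the reads of the later embryos in order of age, against 2.50%, 3.04%, 3.49%, 2.99% and 4.42% in the earlier ones. The lower genes took 2.48%, 2.85%, 2.40%, 1.64% and 1.72% of the reads of the later embryos, against 12.01%, 9.69%, 7.80%, 9.71% and 7.22% in the earlier ones. Since the genes were chosen for this difference, the gap between the windows is a description. In embryos that took no part in the choice, the higher genes held 7.88%, 8.66% and 8.75% at 110, 120 and 130 minutes, against 3.16%, 3.22% and 4.67% at 1, 2 and 4 cells. The lower genes held 2.28%, 1.78% and 2.03% at 110, 120 and 130 minutes, against 10.03%, 9.85% and 9.36% at 1, 2 and 4 cells. The lower genes stayed low in later libraries, with a median of 1.73% in the 16 middle embryos (range 1.48% to 2.06%) and 1.99% in the 14 late ones (range 1.71% to 2.39%). The higher genes had medians of 8.02% (range 6.91% to 13.98%) and 5.91% (range 4.58% to 9.79%) there. With reads summed over embryos, the median level of all 1176 tested genes was 395 CPM at 10 to 50 minutes, 254 CPM in the middle library and 175 CPM in the late one. For the lower genes it was 495, 87.3 and 82.5 CPM in the same order. Libraries and ages cannot be told apart in these values.

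**Figure D4:**
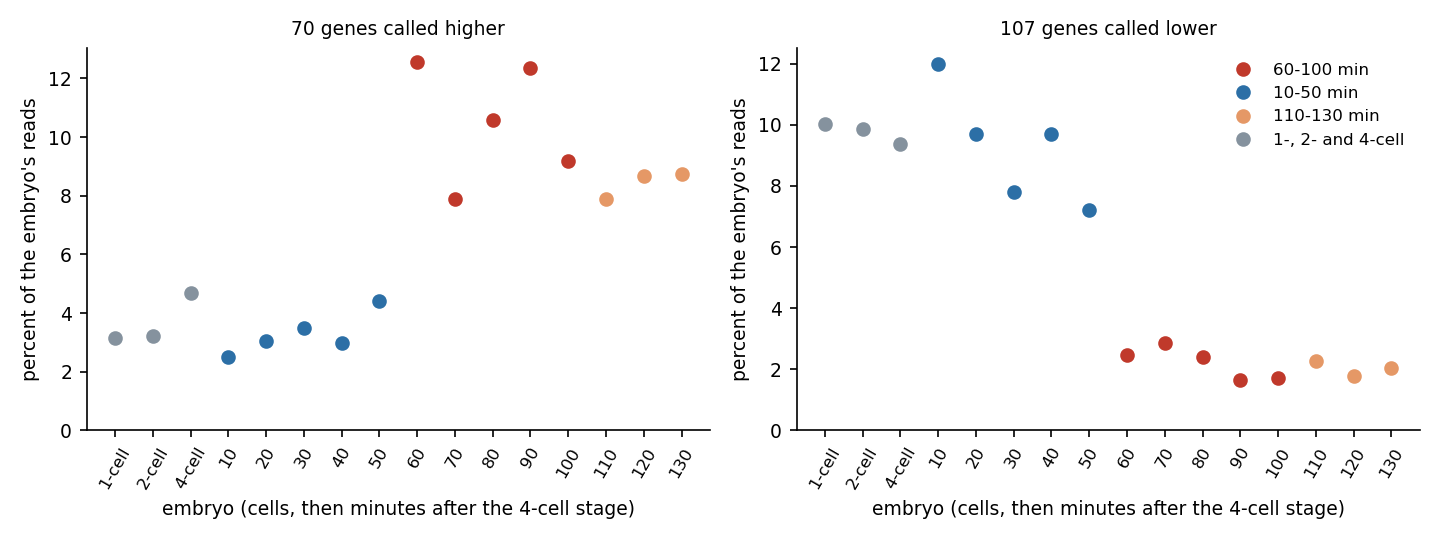
Percent of each embryo's reads in the 70 genes called higher (left) and the 107 genes called lower (right) at 60 to 100 minutes, for the 16 embryos of the early library in order of age. Points are embryos coloured by window; the lower genes hold 1.64% to 2.85% of reads at 60 to 100 minutes and 7.22% to 12.01% at 10 to 50 minutes.

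With reads summed over the embryos of each of 6 stages (1, 2 and 4 cells, 10 to 50, 60 to 100 and 110 to 130 minutes, and the middle and late libraries), 31 of the 70 higher genes had their highest level at 60 to 100 minutes. Another 12 had it at 110 to 130 minutes, 12 in the middle and 15 in the late library. Of all 1176 tested genes, 270 had their highest level at 60 to 100 minutes. Among these 1176, 247 had it at 110 to 130 minutes, 129 in the middle and 97 in the late library. In 37 of the 70 higher genes the lowest level lay in the late library, which held for 615 of all tested genes. Of the 107 lower genes, 65 were highest at 1, 2 and 4 cells and 36 at 10 to 50 minutes, where 185 and 248 of all tested genes were highest. The way the genes were called favours a high level at 60 to 100 minutes for the higher genes and at 10 to 50 minutes for the lower ones. Deep embryos dominate the sums: those at 30 and 50 minutes gave 381377 and 404701 of the 872364 reads at 10 to 50 minutes. Of the lower genes, 100 were below their level of 10 to 50 minutes in both the middle and the late library (783 of the 1176 tested genes were).

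Whether the genes also changed with age inside the windows was tested as a slope on minutes, centred in each window, which does not use the difference between the windows. No gene passed: 0% of 1176 genes were called by edgeR at an adjusted p under 0.05, and 96 lay at an unadjusted p under 0.05. limma-trend called 0, and DESeq2 called CJA05991, with a slope of -1.0 per 10 minutes on the log2 scale (adjusted p = 0.019). With 1 embryo at each age, a slope rests on 5 embryos in each window. In simulated data 6% of 2-fold and 58% of 4-fold changes across a window were recovered, so such slopes can be missed. In the 107 lower genes the slope was negative in 91 (85.0%), with a median of -0.16 per 10 minutes on the log2 scale, and in the 70 higher genes it was positive in 44 (62.9%), with a median of 0.06. Over all tested genes it was positive in 583 (49.6%), with a median of -0.003. Of the called genes, 23 had a slope at an unadjusted p under 0.05, each in the direction of its change between the windows. Genes are not independent replicates, and these counts were not tested.

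The embryo at 50 minutes was the highest of the 5 earlier embryos in 33 of the 70 higher genes and the lowest in 43 of the 107 lower genes. Over all 1176 tested genes it was the highest in 287 and the lowest in 145. Without the embryos at 50 and 60 minutes, the 4 against 4 that remained gave 196 called genes of 1211 tested, 56 higher and 140 lower.

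The 3 embryos of 110 to 130 minutes were compared with the 3 of 1, 2 and 4 cells in the same way, with 1 embryo at each age or stage. Barcode numbers were 14 to 16 in the older embryos and 1 to 3 in the younger ones. They ascend with age as between the windows, so age and barcode cannot be told apart here either. In these embryos, which enter neither window, 119 of 803 tested genes changed (14.8%), with 22 higher (2.74%) and 97 lower (12.1%) at 110 to 130 minutes by edgeR at an adjusted p under 0.05. Of the 97, 27 had no read in any of the older embryos. The older embryos were all shallow, with 1890, 14709 and 7443 reads, against 188509, 75884 and 48077 reads at 1, 2 and 4 cells. The count was 53 of 421 tested genes without the embryo of 1 cell and 56 of 414 without that of 4 cells. It was 54 of 1496 without that at 120 minutes and 181 of 1485 without that at 110 minutes.

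Of the 107 genes lower at 60 to 100 minutes, 77 could be tested in these embryos, and 42 of the 77 (54.5%) were called lower and 0 higher, beside 8.68% called lower among the 726 genes tested in both comparisons. The log2 change was negative in 76 of the 77, beside 56.9% of the 726. The exception was CJA22665, named after its values were seen, at 0.06 (edgeR adjusted p = 0.97). The median was -2.76, or -2.64 with the 5 genes that had no read at 110 to 130 minutes set to a bound of 3 counts over these embryos, and -0.18 over the 726 genes. Of the 70 genes higher at 60 to 100 minutes, 52 could be tested, and 12 of them (23.1%) were called higher and 0 lower, beside 2.48% called higher among the 726. Their log2 change was positive in 33 (63.5%), beside 43.1% of the 726, with a median of 0.32.

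**Figure D5:**
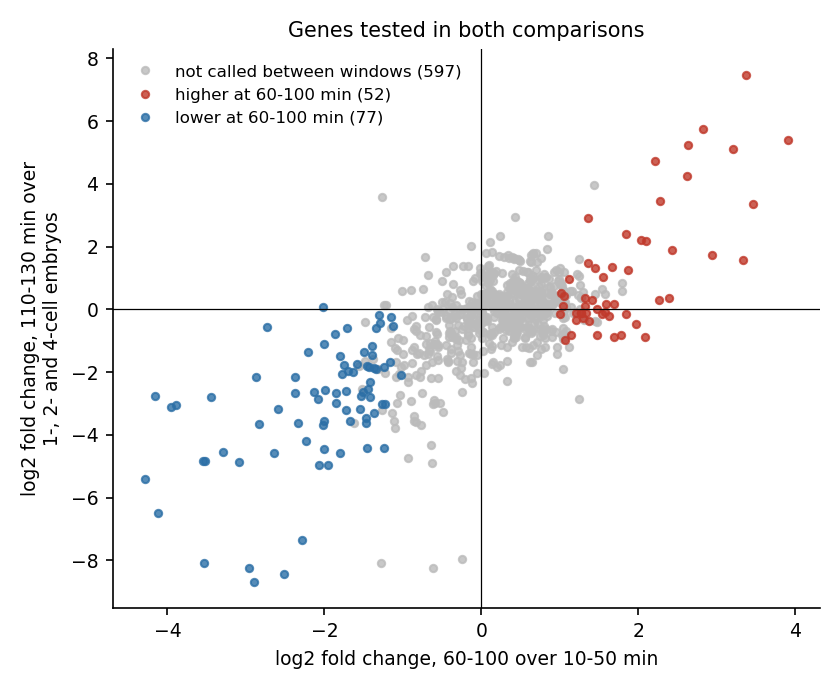
Log2 fold change of 110 to 130 minutes over 1, 2 and 4 cells against that of 60 to 100 over 10 to 50 minutes, for the 726 genes tested in both comparisons, which share no embryo. Blue points are genes lower and red points genes higher at 60 to 100 minutes; 76 of the 77 blue points lie below 0 on the vertical axis, where fitted values of genes with no read at 110 to 130 minutes depend on the prior count.

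Genes chosen in these embryos alone were then read in the windows. The 97 genes lower at 110 to 130 minutes took 3.15%, 2.29%, 2.17%, 1.33% and 1.23% of the reads of the embryos at 60 to 100 minutes in order of age, against 11.5%, 8.32%, 6.66%, 7.92% and 5.28% at 10 to 50 minutes. The windows did not overlap, and the highest value of both was that at 10 minutes. All 63 of these genes that could be tested between the windows had a negative log2 change there, with a median of -1.63, where the median of all genes was 0.16. The 22 genes higher at 110 to 130 minutes took 1.66%, 1.52%, 2.72%, 3.46% and 2.41% at 60 to 100 minutes, against 1.55%, 0.48%, 0.58%, 0.79% and 0.81% at 10 to 50 minutes. Here the windows overlapped, the embryo at 10 minutes lying above that at 70 minutes. The 10 of these genes that were not called between the windows include some that could not be tested there. They took 0.43% ± 0.060 of reads at 60 to 100 minutes and 0.53% ± 0.40 at 10 to 50 minutes (SD, n = 5 each). The earlier embryos had 1.23%, 0.28%, 0.33%, 0.52% and 0.32% in order of age, so the embryo at 10 minutes raised their mean. The later embryos had 0.37% to 0.52%. Of the 22 genes, 18 could be tested between the windows. Of these 18, 17 had a positive log2 change and 12 were called higher, beside 5.95% called higher among all 1176 tested genes.

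CJA12881 had the largest rise in these embryos. It had 5820.1, 2583 and 16122.5 CPM at 110, 120 and 130 minutes, against 10.6, 52.7 and 62.4 CPM at 1, 2 and 4 cells. The log2 fold change was 7.48 ± 1.00 (SE; edgeR adjusted p = 1.32e-04). It was 6.05 without the embryo at 130 minutes and 6.66 without that of 1 cell, and the gene was called higher in both fits. The gene was also called between the windows, with 653, 1459, 1659.9, 4377 and 2014 CPM in the later embryos, against 421, 117, 115, 249 and 297 CPM in the earlier ones. That log2 fold change was 3.37 ± 0.53 (SE; edgeR adjusted p = 3.67e-04), and the windows did not overlap.

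CJA07653 had 1587, 952 and 12226 CPM at 110, 120 and 130 minutes, against 37.1, 145 and 62.4 CPM at 1, 2 and 4 cells, a log2 fold change of 5.75 ± 1.00 (SE; edgeR adjusted p = 0.0013). It was 3.34 without the embryo at 130 minutes, 5.14 without that of 1 cell and 6.53 without that of 2 cells, and the gene was called higher in each of these fits. Between the windows it had 190.4, 830.2, 717, 1804 and 863 CPM in the later embryos, against 210.4, 66.7, 121, 166 and 168 CPM in the earlier ones. The embryo at 60 minutes lay inside the earlier range, and the log2 fold change was 2.83 ± 0.51 (SE; edgeR adjusted p = 9.28e-04). In the middle library the median over 16 embryos was 15458 CPM for CJA12881 and 6653 CPM for CJA07653.

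The 2 genes lower in these embryos that the rule for named genes gives, by fitted fold changes that depend on the prior count, had no read at 110 to 130 minutes. Their falls are known as lower bounds alone and cannot be ranked against those of other genes. CJA04706 had 0 reads there, against 1931, 1436 and 1789 CPM at 1, 2 and 4 cells, which puts its level at least 14.3-fold lower with the older embryos set to 3 counts in all (edgeR adjusted p = 0.0017). CJA02352 had 0 reads there, against 1819.5, 1898 and 1123 CPM at 1, 2 and 4 cells, at least 13.9-fold lower by the same bound (edgeR adjusted p = 0.0021). Neither gene passed the filter on low counts between the windows. CJA04706 had 27.2, 27.2, 75.4, 0 and 61.0 CPM at 60 to 100 minutes, against 7573.6, 517, 275, 748 and 133 CPM at 10 to 50 minutes. CJA02352 had 54.4, 11.6, 0, 44.0 and 17.4 CPM at 60 to 100 minutes, against 1122, 66.7, 36.7, 83.1 and 9.88 CPM at 10 to 50 minutes. In both genes the embryo at 10 minutes stood above the others of its window.

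The place of the reads within a gene is a further readout of the same embryos. A peak is a location in a gene at which the authors counted reads separately, which in CEL-Seq lie near 3′ ends, and its share is its percent of the gene's reads. The files do not say from where locations are counted. In 271 genes with 584 tested peaks, 0% of peaks were called for a changed share between the windows. The test was quasi-binomial regression at an adjusted p under 0.05, and 52 peaks lay at an unadjusted p under 0.05. In simulated data a shift of 20 percentage points was recovered in 40% of genes, so such shifts can be missed. The exact permutation test of the shares left 29 at an unadjusted p under 0.05; its smallest p with 5 against 5 embryos is 0.0079, too large for that number of peaks to pass adjustment over 584, so its count of 0 calls adds nothing to the regression. In the 234 genes with 2 tested peaks, the share of the peak with the higher location was higher in the later window in 109 and lower in 125, with a median absolute difference of 6.69 percentage points between the windows.

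The smallest p belonged to CJA16579, named after its values were seen. Its peak at location 158 held 97.2%, 90.3%, 94.4%, 94.7% and 95.5% of the gene's reads in the later embryos, against 63.6%, 89.1%, 78.5%, 71.4% and 81.8% in the earlier ones. The windows did not overlap, but the values at 10 and 40 minutes rest on 11 and 7 reads. The mean share was 94.4% ± 2.55 in the later window and 76.9% ± 9.78 in the earlier one (SD, n = 5 each), with p = 7.79e-04 before and 0.27 after adjustment over the 584 peaks by quasi-binomial regression, not by an exact test. Of the 10 genes named for their totals, the peak with the most reads held 89.0% of the reads of CJA11892 at 60 to 100 minutes, summed over embryos, and 89.4% at 10 to 50 minutes. That of CJA17475 held 91.5% at 60 to 100 minutes and 91.6% at 10 to 50 minutes. Larger gaps were seen in genes with few reads in the later window: the listed peak of CJA14372 held 74.6% of 67 reads at 60 to 100 minutes and 90.2% of 1459 reads at 10 to 50 minutes, and that of CJA04706 held 82.4% (14 reads in the peak) at 60 to 100 minutes and 96.7% (297 reads) at 10 to 50 minutes. In both genes 1 peak is listed, so these shares were not tested.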

How the data were processed

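Single-embryo CEL-Seq data were used as the authors deposited them: whole-number counts of reads in each peak of a gene, with a gene total, of which the listed peaks hold 93.3%. The file headers state no scaling of these counts. Per the submitters' processing notes, CASAVA 1.8, Bowtie2 2.1.0 and HTSeq 0.5.4p3 were used, without their roles. The build, annotation and peak caller stay not given in the sources used here, and the 5 gene lists matched 0 identifiers. Whether the table lists all genes is not stated, so read totals may fall short of sequencing depth. No molecular identifiers are named, and bounds cover counting error only.

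A deposited sheet gave each embryo's age, barcode and library. Gene totals of the embryos compared were filtered with filterByExpr (minimum count 10), scaled by TMM (factors 0.85 to 1.12) and put to the quasi-likelihood F test of edgeR 4.0.16 (R 4.3.3). The 1176 genes tested between the windows hold 79.4% of the reads. The SE is the absolute log2 fold change over the square root of F. Printed CPM use all 3955 listed genes and no TMM factor. Peak shares were put to quasi-binomial regression for genes that had 2 or more peaks of 10% of reads, in embryos with 5 or more reads of the gene, 3 or more of them per window, with a dispersion of at least 1. Tests are two-sided. Alternatives were limma 3.58.1, DESeq2 1.42.0, other scalings and filters, wider fits and leaving out each embryo.

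With identifiers only, each comparison names the 2 largest rises and 2 largest falls among called genes with at least 100 reads and a mean of 100 CPM over the embryos compared, and the 2 most abundant genes not called. The windows and lists were chosen with earlier results of these data known. The tests were checked on simulated data with known changes.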

Additional observations from a re-analysis of the deposited data

Results flagged for a closer look

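In 6 of 42 groups of 5 values, 1 embryo stood apart from the rest by Dixon's test at the 95% level. Chance does so in about 1 of 20 independent groups of normal values. The groups here share embryos and include genes named for large changes, so the 6 cannot be set against that rate. Of the 6, 5 concern the embryo at 10 minutes. Its 10 most abundant genes took 9.03% of reads, and the next embryo of its window was at 7.08%. The 10 genes higher at 110 to 130 minutes than at 1, 2 and 4 cells and not called between the windows held 1.23% of its reads, with the next at 0.52%. It had 5399.7 CPM of CJA06598 (next 1079.9), 7573.6 CPM of CJA04706 (next 748) and 1122 CPM of CJA02352 (next 83.1). This embryo is shallow, with 14260 reads, and the part of depth in these values was not tested. The embryo at 50 minutes had 628 CPM of CJA11892, with the next of its window at 210.4 CPM.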

How the results depend on the processing

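No paired analysis was possible because each age has 1 embryo and the windows share no replicate numbers. The count of 177 genes changed between the windows stayed within 1.5 times with the 3 other scalings, DESeq2 (218), limma-trend (147), a slope on time (144) and without the shallow embryos (222, of 1978 tested genes in place of 1176). It was 487 of 3806 tested genes without a filter and 360 of 2633 with a minimum count of 3. In fits on 16 and 46 embryos it was 323 of 1766 and 335 of 3276. These settings test more genes than the 1176, so the counts are not on 1 scale. It was 104 to 241, of 1103 to 1433 tested genes, when 1 embryo was left out. With reads thinned to the shallowest embryo, an alternative chosen after seeing the data, 221 genes could be tested and 17 were called, all 17 in the same direction as before. There CJA12409, not called in any setting, had a log2 change of -0.12 (adjusted p = 0.86). Calls of the named genes held in all alternatives in which each could be tested, except that of CJA38444 in the exact permutation test. That test was not adjusted over genes, and CJA38444 also lay at an unadjusted p under 0.05 by edgeR. Slopes within windows were called for 13 of 3806 tested genes without a filter, 1 with DESeq2 and 0 to 1 when 1 embryo was left out. Genes changed at 110 to 130 minutes numbered 267 of 3695 tested genes without a filter and 209 of 1766 in the fit on 16 embryos. They numbered 53 to 181 when 1 embryo was left out. The genes tested there also differed in number, from 409 to 1496 when 1 embryo was left out. That comparison could not be fitted without shallow embryos, since all 3 older ones are shallow. Where another cause is not named, the cause was not tested. The difference in the share of the 10 most abundant genes ranged from 1.34 to 2.20 points when 1 embryo was left out, and that in detected genes from -301 to -223.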
